A study of Mus musculus with 99 samples.

Results

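Hearts of 11 classical inbred mouse strains were compared by the haplotype of the major histocompatibility complex, which in the mouse is called H2 and lies on chromosome 17. Strains were chosen by strain label. The H2k group held AKR/J, C3H/HeJ, CBA/J, CE/J, C58/J and MA/MyJ, and the H2b group held C57BL/6J, C57L/J, LP/J, 129X1/SvJ and BTBR T<+> tf/J. These 11 were part of 99 arrays, the rest being 17 further classical strains, the recombinant inbred panels BXH (11 strains), BXD (30), AXB (15) and BXA (13), 1 array of CAST/EiJ and 1 of B6cC3-1/KccJ. Among the 30 BXD arrays, the labels BXD24/TyJ-Cep290<rd16>/J and BXD29-Tlr4<lps-2J>/J name a mutation, and BXD24/TyJ is also present. The labels name the strain and not the haplotype, which was taken from the known typing of these strains.

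The series was collected for a genome-wide association study of heart expression. Every animal was an untreated male on a chow diet with alternating light and dark, and total RNA of the heart was put on 1 Affymetrix HT_MG-430A array per strain. The protocol gives an age of 16 weeks, while the age label ran from 22 to 53 weeks in the H2k strains and from 23 to 42 weeks in the H2b strains. Across the series this label rose by the same step from nearly every sample to the next, like a running number. It was not used as an age. With 1 array per strain the replicate in each group was the strain, and errors and p-values measure the spread between strains, technical spread included. Strains of a group also share ancestry. C3H/HeJ and CBA/J are related, as are LP/J, 129X1/SvJ and BTBR T<+> tf/J, and C58/J of the H2k group is related to C57BL/6J and C57L/J of the H2b group. Any other locus that is shared within a group cannot be told apart from the haplotype in the mean difference. Levels are the authors' log2 values, a difference is the H2k mean minus the H2b mean in log2 units, and calls were made with limma at an adjusted p (Benjamini-Hochberg over 7513 genes) under 0.05.

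The H2 complex holds the class I genes, whose products show peptides from inside the cell to CD8 T cells, and the class II genes, whose products show ingested peptides to CD4 T cells. Between them lies the class III region, with complement genes and many genes without a role in immunity. A haplotype is the set of alleles that a strain carries along the whole complex. In haplotype b the E alpha chain gene H2-Ea is known to be silent through a deletion of its promoter, and haplotype k is known for low complement C4 in serum, the trait once called Ss-low. In heart muscle, class II transcripts come mainly from macrophages and dendritic cells, and fewer such cells and less RNA per cell cannot be told apart in whole-heart RNA.

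Promoters of 3 genes of the complex are shown: those of H2-D1 and Gabbr1, whose levels are described in detail below, and that of H2-Eb1 as a class II promoter to set beside them. The promoters of C4b and H2-Ab1 are not shown. They are RefSeq sequences of GRCm38.p6, the C57BL/6J reference and so a haplotype b strain, from 250 bases before to 50 bases after the gene's start. H2-Eb1 lies at chr17:34305617-34305916, H2-D1 at chr17:35262844-35263143 and Gabbr1 at chr17:37045716-37046015, all on the plus strand. Capitals mark the Y box of class II promoters, CTGATTGG, searched on both strands, which was found in 1346 of 32851 promoters of that table (4.1%). It began 62 bases before the start in H2-Eb1. In H2-D1 it was found as its reverse complement, 53 bases before the start, and in Gabbr1 these letters were not in the window.
H2-Eb1: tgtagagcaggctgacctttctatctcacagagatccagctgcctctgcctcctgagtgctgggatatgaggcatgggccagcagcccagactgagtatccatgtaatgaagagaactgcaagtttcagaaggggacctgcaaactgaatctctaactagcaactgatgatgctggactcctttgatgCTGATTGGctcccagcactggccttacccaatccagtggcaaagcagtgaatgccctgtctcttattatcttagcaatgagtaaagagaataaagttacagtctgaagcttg
H2-D1: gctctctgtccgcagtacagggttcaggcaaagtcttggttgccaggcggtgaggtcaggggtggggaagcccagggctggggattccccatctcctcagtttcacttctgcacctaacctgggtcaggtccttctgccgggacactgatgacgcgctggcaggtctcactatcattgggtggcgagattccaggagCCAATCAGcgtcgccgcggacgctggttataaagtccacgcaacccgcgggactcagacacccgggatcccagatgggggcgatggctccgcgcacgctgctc
Gabbr1: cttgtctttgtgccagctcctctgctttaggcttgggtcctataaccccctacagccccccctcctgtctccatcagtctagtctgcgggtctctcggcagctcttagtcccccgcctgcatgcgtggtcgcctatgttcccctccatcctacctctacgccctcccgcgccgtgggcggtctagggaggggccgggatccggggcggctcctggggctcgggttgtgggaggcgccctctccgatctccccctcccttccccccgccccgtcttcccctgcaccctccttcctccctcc

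Arrays were first checked for other tissue and RNA quality. Array medians of the 11 strains lay between 4.01 and 4.05. The difference between the 3' and 5' Gapdh control probe sets averaged -0.33 ± 0.08 in H2k strains and -0.32 ± 0.06 in H2b strains (SD, n = 6 and 5). The mean level of the 11 ventricular cardiomyocyte markers tested was taken relative to its median over all arrays. It ran from -0.04 to 0.04 in H2k strains and from -0.09 to 0.08 in H2b strains, so the labelled heart tissue was present on every array. On 2 H2k arrays and 3 H2b arrays the mean level of another organ's markers on the platform exceeded its median over all arrays by over 2 log2 units. These were CBA/J (airway 6.48), CE/J (airway 3.93, squamous epithelium 4.35 and fast skeletal muscle 2.64), C57L/J (airway 2.58), BTBR T<+> tf/J (airway 2.42) and 129X1/SvJ (squamous epithelium 5.02 and fast skeletal muscle 3.16).

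The gene meant to mark the haplotypes, H2-Ea, did not separate the groups. At its brightest probe set the level ran from 4.48 to 4.77 with a median of 4.68 in the H2k strains, against 4.56 in C57BL/6J, 4.74 in C57L/J, 5.11 in LP/J, 4.80 in 129X1/SvJ and 4.49 in BTBR T<+> tf/J. The groups overlapped, and the difference was -0.10 (SE 0.11, limma adjusted p = 0.837, two-sided exact permutation p = 0.422). A second probe set of H2-Ea read 4.78 in C58/J, 4.16 in CE/J, 3.80 in C3H/HeJ, 3.77 in CBA/J, 3.55 in MA/MyJ and 3.33 in AKR/J, against 3.13 to 3.47 in the H2b strains. Here 5 of 6 H2k strains lay above the highest H2b strain and AKR/J lay within their range, for a difference of 0.61 (limma adjusted p = 0.423 over all probe sets, exact permutation p = 0.0173). The same probe set reached 9.35 among the 17 other classical strains and 8.74 among the BXD strains, so the H2k strains stayed far below the highest levels measured. The groups are therefore called by the strains' known haplotypes, and why H2-Ea was dim in H2k hearts was not tested.

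Against this background, C4b, which encodes complement component C4, was the only gene called, 1 of 7513 (0.0133%), and it lies in the class III region. Its level was 6.20 in C3H/HeJ, 5.80 in C58/J, 5.45 in CE/J, 5.30 in AKR/J, 5.30 in MA/MyJ and 5.20 in CBA/J, against 7.63 in C57L/J, 7.57 in 129X1/SvJ, 7.25 in LP/J, 7.17 in BTBR T<+> tf/J and 6.72 in C57BL/6J. Every H2k strain lay below every H2b strain. The means were 5.54 ± 0.38 and 7.27 ± 0.37 (SD, n = 6 H2k and 5 H2b), a difference of -1.73 (SE 0.21) or 3.31-fold lower in H2k hearts (limma adjusted p = 0.0142). The exact permutation p was 0.00216, the smallest that the 462 splits allow. Groups that do not overlap bring this p to or near its floor, so it adds nothing to the lack of overlap. The probe set cannot be assumed to tell C4b from its close copy C4a. The call was lost without CE/J (adjusted p = 0.0590), LP/J (0.0708), C57L/J (0.0702) or BTBR T<+> tf/J (0.0626), and with the 5 arrays that showed other organs left out (difference -1.33, adjusted p = 0.953, 4 H2k against 2 H2b). It was also lost with all classical strains in 1 fit (adjusted p = 0.116).

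Gabbr1, which encodes subunit 1 of the GABA-B receptor and lies at the distal, class I end of the complex, stood in the opposite direction. Its level was 6.89 in C3H/HeJ, 6.26 in MA/MyJ, 6.16 in AKR/J, 6.16 in CE/J, 5.87 in CBA/J and 5.28 in C58/J, against 4.95 in LP/J, 4.71 in C57L/J, 4.67 in C57BL/6J, 4.53 in BTBR T<+> tf/J and 4.42 in 129X1/SvJ. The groups did not overlap, and C58/J was the H2k strain nearest to the H2b strains. The difference was 1.44 (SE 0.22, 2.72-fold), and it missed the threshold in the 11 strains (limma adjusted p = 0.0712). Gabbr1 was picked out after its values were seen. Its exact permutation p of 0.00433 restates that the groups did not overlap and adds no support. In the same 11 strains the difference passed with lower against upper title numbers of the labels as a block (1.48, adjusted p = 0.0358). It also passed with the Gapdh covariate (1.48, adjusted p = 0.0224) and with eBayes trend and robust (adjusted p = 0.0464). Without C58/J it was 1.61 and passed (adjusted p = 0.00494). Without any other single strain it did not pass (limma adjusted p up to 0.208). Nor did it pass with related strains averaged or with the arrays that showed other organs left out. In all it passed under 6 of 22 alternatives, with limma adjusted p up to 0.998. Against the 17 other classical strains, in which Gabbr1 ran from 4.47 to 4.95, the H2k difference was 1.38 (SE 0.13, adjusted p = 8.59e-07). Gabbr1 was the only gene called in that comparison, 1 of 7513 (0.0133%), and the only 1 whose groups did not overlap. That comparison was not planned, and it shares its H2k arrays with the one against H2b. All these values come from the brightest probe set of Gabbr1. Its other probe sets lay under the filter and averaged 3.39 and 3.02 in H2k strains, against 3.12 and 3.03 in H2b strains. Whether alleles of Gabbr1 differ in how they bind the probes was not tested.

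**Figure D1:**
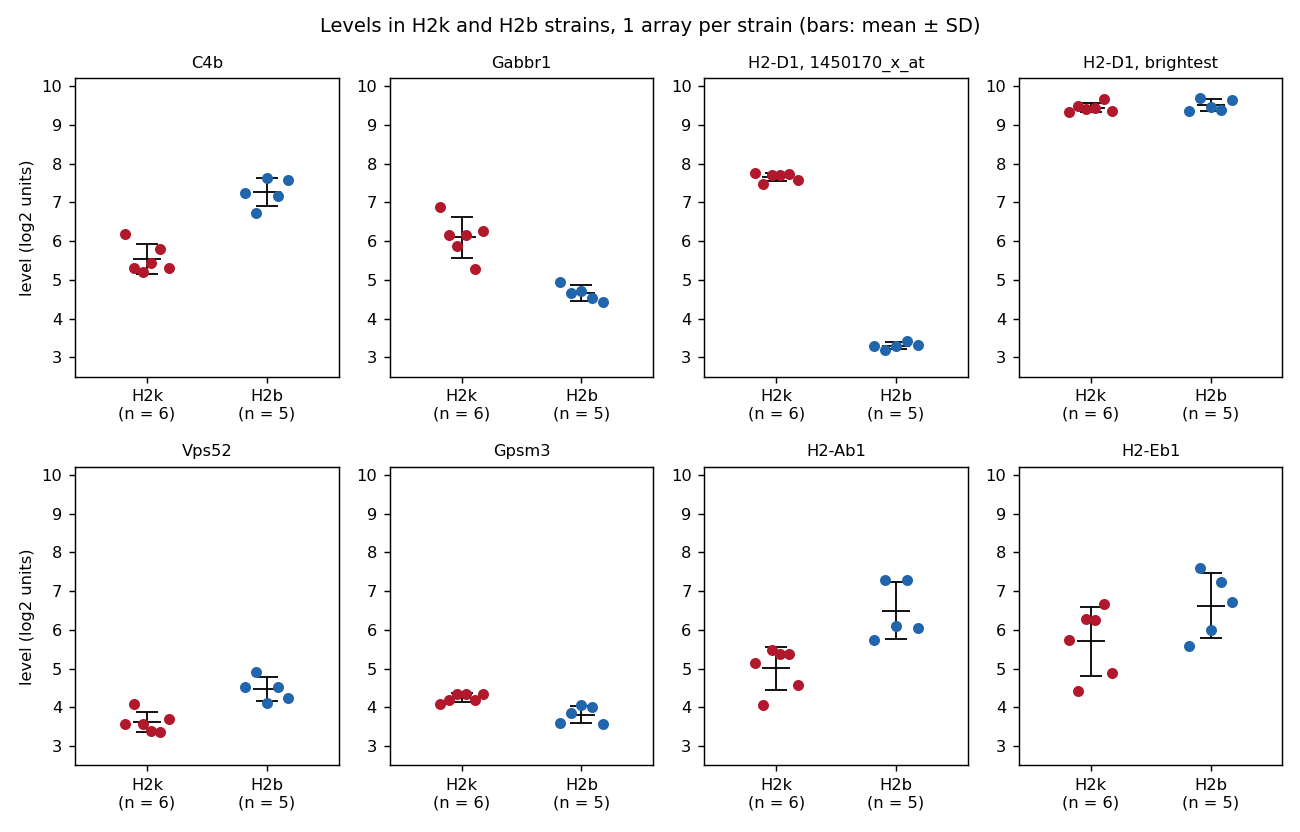
Log2 level (y axis) of 8 probe sets in each of the 6 H2k strains (left) and 5 H2b strains (right). C4b lies between 5.20 and 6.20 in H2k strains and between 6.72 and 7.63 in H2b strains, and 1 probe set of H2-D1 lies between 7.49 and 7.77 against 3.19 to 3.42.

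The widest gap in the complex was not at the brightest probe set of its gene. H2-D1 encodes a classical class I heavy chain, and its brightest probe set read 9.33 to 9.68 in H2k strains and 9.37 to 9.69 in H2b strains (difference -0.07, adjusted p = 0.877). Another probe set of H2-D1 was picked out after its values were seen. It read 7.77 in C3H/HeJ, 7.73 in C58/J, 7.71 in CE/J, 7.71 in CBA/J, 7.57 in MA/MyJ and 7.49 in AKR/J, against 3.42 in BTBR T<+> tf/J, 3.33 in 129X1/SvJ, 3.29 in C57L/J, 3.28 in LP/J and 3.19 in C57BL/6J. No strain lay between, and C58/J stood with the other H2k strains. The difference was 4.36. The H2b levels lay under the filter level of 3.59, so no fold is given. In the fit of 10875 probe sets it was called with that of C4b, 2 in all (0.0184%), but it passed the filter on its mean over 99 arrays only through the arrays where it was high, so its p supports nothing and is not given. The suffix of its name, _x_at, marks a probe set with probes that can match more than 1 transcript. The brightest probe sets of H2-D1 and H2-K1 carry the same suffix, so their levels may include other transcripts. The other H2-D1 probe sets above the filter read 3.54 and 3.41 on average in H2k strains, against 3.64 and 3.37 in H2b strains. They averaged 5.67 and 5.75 over all 99 arrays, so they were bright in other strains and near the filter level in both groups. They cannot show whether the groups differ. A change in H2-D1 level and a difference between alleles in how they bind the probes cannot be told apart with these values.

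Across the series this H2-D1 probe set was either high or low, with only CAST/EiJ in between. It stayed at 3.74 or lower in all 17 other classical strains, and at 3.92 or lower in all BXD, AXB and BXA strains. The BXH strains descend from C57BL/6J and C3H/HeJ, an H2b and an H2k parent. In 4 of 11 BXH strains it was high, at 7.47 in BXH6/TyJ, 7.53 in BXH2/TyJ, 7.62 in BXH7/TyJ and 7.90 in BXH14/TyJ, and in the other 7 strains it was 3.61 or lower. Gabbr1 read 6.44, 6.89, 6.78 and 6.07 in those 4 strains in the same order, and 4.52 to 5.50 in the other 7. The 4 strains were picked by their H2-D1 level, so their gap to the 7 at H2-D1 is fixed by that split. At Gabbr1 the same 4 lay above the midpoint of the parents and did not overlap with the 7. C4b in the 4 ran from 4.64 to 6.38 and in the 7 from 6.18 to 7.73, which overlapped. Low C4b also occurred in panels without a parent in the H2k group. It ran from 4.97 to 7.80 in AXB, 5.16 to 7.18 in BXA and 5.54 to 8.05 in BXD strains. In the 17 other classical strains it ran from 6.04 to 8.49. CAST/EiJ, a wild-derived strain, read 5.87 for H2-D1 and 4.43 for Gabbr1.

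**Figure D2:**
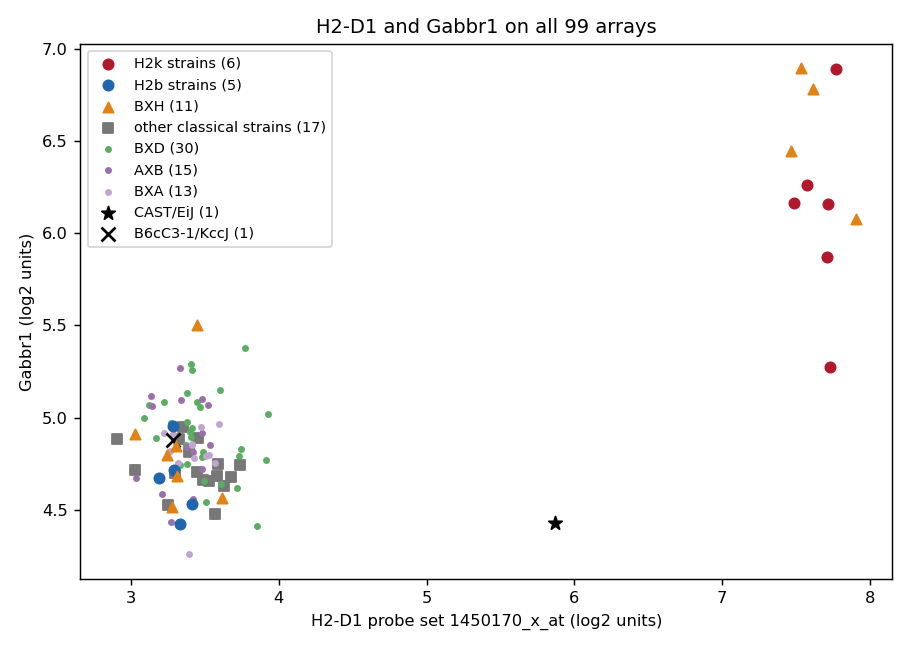
H2-D1 probe set level (x axis, log2) against Gabbr1 level (y axis, log2) for all 99 arrays, coloured by group. The 6 H2k strains and 4 of 11 BXH strains lie to the upper right, and CAST/EiJ lies at 5.87 with Gabbr1 at 4.43.

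Among the class II genes the complex gave 6 tested genes, of which 2 had a positive and 4 a negative difference, with a median of -0.09 against 0.01 over all genes, and none was called. H2-Ab1, the A beta chain, read 5.13 in C3H/HeJ, 4.07 in AKR/J, 5.49 in CBA/J, 5.38 in CE/J, 5.39 in C58/J and 4.57 in MA/MyJ, against 7.30 in BTBR T<+> tf/J, 7.29 in C57BL/6J, 6.09 in C57L/J, 6.04 in 129X1/SvJ and 5.74 in LP/J. Every H2k strain lay below every H2b strain, 1 of the 65 genes tested without overlap (0.865%). The difference of -1.49 (SE 0.34) did not pass over all genes (limma adjusted p = 0.334). The exact permutation p for this gene alone, 0.00216, restates the lack of overlap and adds no support. The other probe set of H2-Ab1 lay under the filter. It averaged 3.39 in H2k strains and 3.56 in H2b strains, with overlapping groups. Whether alleles of H2-Ab1 differ in how they bind the probes was not tested. H2-Eb1, the E beta chain, differed by -0.92 (SE 0.45, adjusted p = 0.567). H2-Aa, the A alpha chain that pairs with the product of H2-Ab1, differed by 0.39 (SE 0.35, adjusted p = 0.777). H2-DMa and H2-DMb2, which load peptides onto class II, differed by -0.08 and 0.0021.

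Class II partners encoded elsewhere gave 8 tested genes, 4 with a positive and 4 with a negative difference, and none called. Cd74, the invariant chain that escorts class II molecules, differed by -0.36 (SE 0.40, adjusted p = 0.827). Over the 13 macrophage and dendritic cell markers tested, 7 differences were positive and 6 negative, with none called and a median of 0.0046. The mean level of that list was taken over its 20 markers on the platform, relative to its median over all arrays. It ran from 0.03 to 0.24 in H2k strains and from -0.04 to 0.32 in H2b strains. The B cell list ran from 0.04 to 0.37 in H2k strains and from -0.05 to 0.24 in H2b strains. The part of such cells in the H2-Ab1 values was not tested. AKR/J had the lowest H2k level of H2-Aa, H2-Ab1, H2-Eb1 and Cd74 alike, at 3.90, 4.07, 4.41 and 5.40.

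Class I genes at their brightest probe sets showed no call among 6 tested, 2 with a positive and 4 with a negative difference (median -0.16). For H2-D1 and H2-K1 these probe sets may also read other transcripts. H2-K1, the other classical class I heavy chain of these strains, averaged 7.53 ± 0.25 in H2k strains and 7.93 ± 0.35 in H2b strains (difference -0.40, SE 0.17, adjusted p = 0.519). Of the non-classical genes, H2-T23, which encodes the Qa-1 antigen, differed by -0.25, H2-T10 by -0.26, H2-T24 by 0.54 and H2-M3, which presents formylated peptides, by 0.26, with adjusted p-values from 0.534 to 0.853. C58/J had by far the lowest H2k level of H2-T23 and H2-T10, at 6.83 and 4.73, against 8.38 to 8.95 and 5.95 to 6.22 in the other H2k strains. The 9 peptide processing genes tested had 7 positive and 2 negative differences with none called. Psmb9, an inducible proteasome subunit, averaged 5.36 ± 0.24 in H2k strains and 4.99 ± 0.17 in H2b strains (difference 0.37, adjusted p = 0.391). A second probe set of Psmb9 differed the other way, by -0.34 (adjusted p = 0.567 over all probe sets), so its probe sets disagree. Psmb8 differed by 0.18 and Tapbp, which encodes tapasin, by -0.11. Erap1, which trims peptides for class I, differed by -0.12, and the chaperones Calr and Canx and the proteasome genes Psmb10, Psme1 and Psme2 by 0.03 to 0.09.

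**Figure D3:**
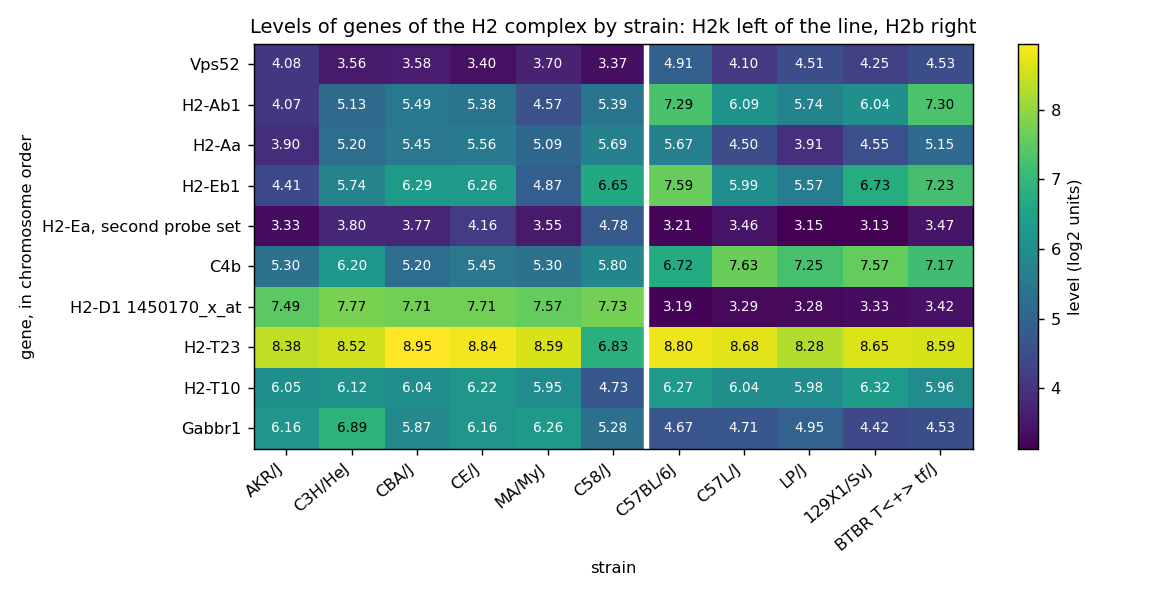
Log2 levels of 10 probe sets of the H2 complex (rows, in chromosome order) in the 6 H2k strains (left of the white line) and 5 H2b strains (right), with the level written in each cell and its colour on the scale beside the map. AKR/J is lowest of the H2k strains at H2-Ab1 (4.07) and H2-Eb1 (4.41), and C58/J at H2-T23 (6.83), H2-T10 (4.73) and Gabbr1 (5.28).

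The list of class III and framework genes of the complex had 55 tested genes, with 28 positive and 27 negative differences (median 0.00083) and C4b as the single call. At an unadjusted p under 0.05, 9 of them passed, and the groups did not overlap in 4, namely C4b, Gabbr1, Vps52 and Gpsm3. Vps52, a subunit of the complex that tethers vesicles to the Golgi, read 4.08 in AKR/J and 3.37 to 3.70 in the other H2k strains, against 4.10 to 4.91 in the H2b strains (difference -0.85, SE 0.16, adjusted p = 0.220). Gpsm3, a modulator of G protein signalling in leukocytes, read 4.09 to 4.35 in H2k strains and 3.56 to 4.05 in H2b strains (difference 0.44, SE 0.11, adjusted p = 0.350). Both gaps between the groups were narrow, under 0.1 log2 units. Ring1, a Polycomb protein, differed by -0.48, Notch4, a receptor of the endothelium, by 0.41 and Clic1, an intracellular chloride channel, by 0.40, with overlapping groups and adjusted p-values of 0.350, 0.444 and 0.421. Of the complement genes beside C4b, Cfb, complement factor B, differed by -0.12 (adjusted p = 0.811) and C2 by 0.14 (adjusted p = 0.826). Over all probe sets, 7 of 97 in the complex (7.22%) were without overlap, against 96 of 10875 (0.883%). The H2-D1 probe set is among the 7, but it passed the filter only through the arrays where it was high. Its place in this count therefore supports nothing. A second probe set of Abhd16a, a lipase gene, was 1 of the 7, at 5.29 to 5.68 in H2k strains and 5.79 to 6.28 in H2b strains, while its brightest differed by -0.08.

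Another 5 tested genes of the complex were in none of these lists, and of them only Zbtb22, a zinc finger gene, had an unadjusted p under 0.05 (difference -0.39, adjusted p = 0.462).

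The complex was then set beside the rest of the genome. Of its 75 tested genes, 13 (17.3%) had an unadjusted p under 0.05, against 9.29% of all genes, and 5 (6.67%) had groups that did not overlap, against 0.865%. Of these 5, C4b, H2-Ab1 and Vps52 were lower and Gabbr1 and Gpsm3 higher in H2k strains. A difference of at least 1 log2 unit was reached by 3 genes of the complex (4%), C4b, H2-Ab1 and Gabbr1, against 0.532% of all genes. The median size of a difference was 0.141 in the complex and 0.113 over all genes. Proximal to the complex, 0 of 157 genes were without overlap and 11 (7.01%) had an unadjusted p under 0.05. Distal to it, 2 of 146 (1.37%) were without overlap, Klc4, a kinesin light chain, at 0.40 and Twsg1, a BMP-binding protein, at 0.27. Over the whole of chromosome 17, 7 of 378 genes (1.85%) were without overlap, close to the 7 of 392 (1.79%) on chromosome 6. Genes of the complex lie close together and share alleles, so they are not independent, and no test of the share was made.

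**Figure D4:**
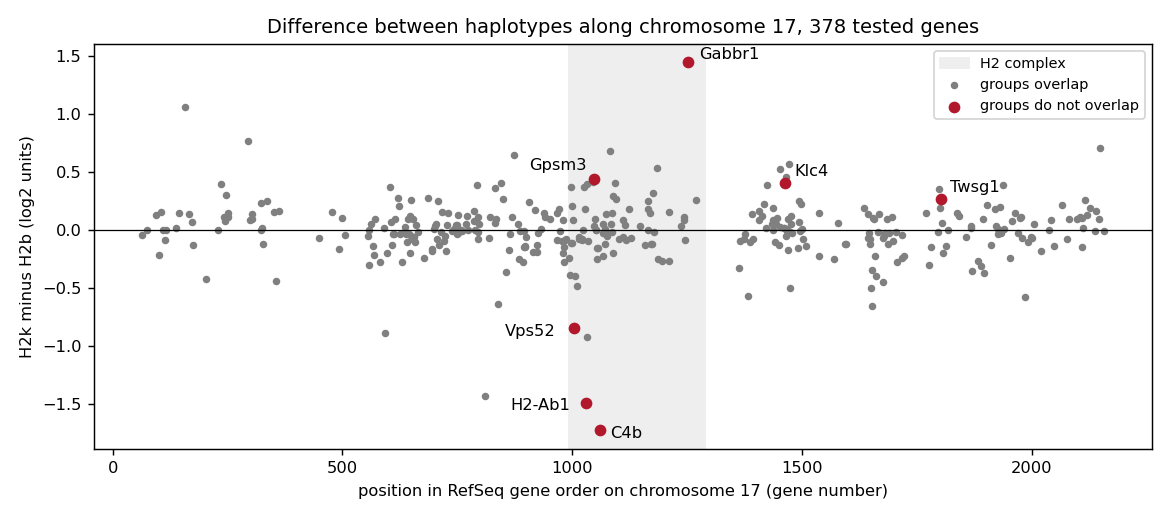
Difference of H2k minus H2b in log2 units (y axis) for the 378 tested genes of chromosome 17 in RefSeq gene order (x axis), with the H2 complex shaded. The largest differences within the complex are C4b at -1.73, H2-Ab1 at -1.49 and Gabbr1 at 1.44.

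**Figure D5:**
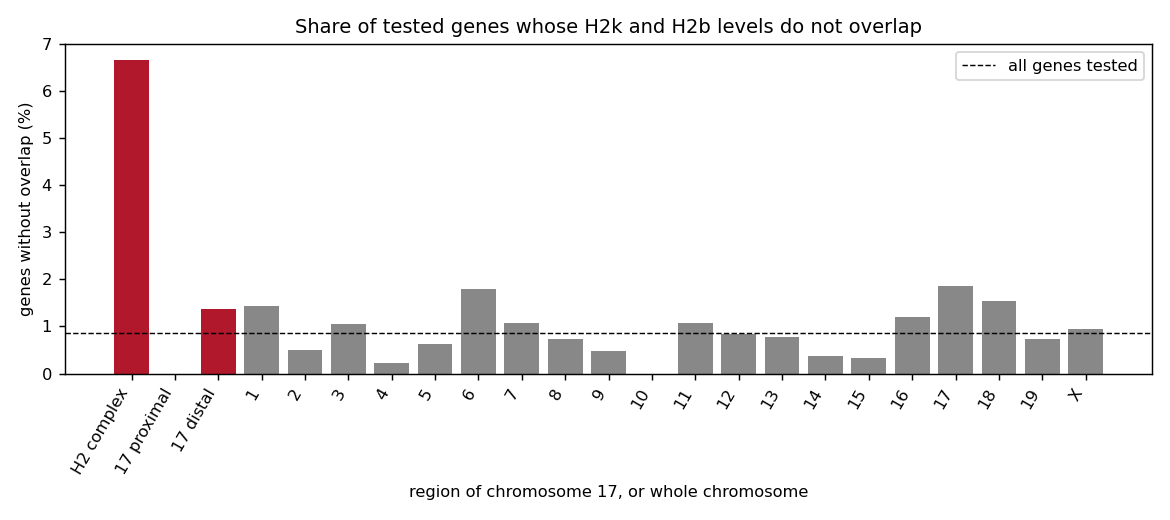
Share of tested genes whose H2k and H2b strains do not overlap, in percent, for the H2 complex, the flanks of chromosome 17 and other chromosomes. The complex is at 6.67%, and the chromosomes run from 0% on chromosome 10 to 1.85% on chromosome 17.

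Glo1, which encodes glyoxalase I and is known for a duplication in some inbred strains, lies proximal to the complex. It read 10.48 in CE/J, 9.99 in AKR/J, 9.79 in CBA/J, 9.39 in C3H/HeJ, 8.88 in MA/MyJ and 8.43 in C58/J, against 8.70 to 9.20 in the H2b strains. Only 4 of 6 H2k strains lay above all H2b strains, and the difference was 0.65 (SE 0.31, adjusted p = 0.542). Fndc1, also proximal, differed by 1.06 (adjusted p = 0.234).

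C58/J carries the H2k haplotype on a background related to C57BL/6J and C57L/J, so it was held out and then placed. Without it, 10 genes were called, 2 of them in the complex and 8 on other chromosomes. C58/J lay on the H2k side of the midpoint between the groups for C4b and on the H2b side for Gabbr1 and for all 8 genes on other chromosomes. Counting instead the genes whose groups did not overlap without C58/J, it lay on the H2k side in 4 of 5 in the complex (C4b, H2-Ab1, Vps52 and Gpsm3), in 3 of 7 (42.9%) on the rest of chromosome 17 and in 47 of 193 (24.4%) on other chromosomes. With only 5 genes in the complex, and these neighbours, no test was made.

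On other chromosomes, none of 7127 genes was called by limma, 656 (9.20%) had an unadjusted p under 0.05 and 58 (0.814%) were without overlap. Art4, which in human encodes the carrier of the Dombrock blood group and lies on chromosome 6, averaged 4.20 ± 0.51 in H2k strains and 5.72 ± 0.31 in H2b strains (difference -1.52, SE 0.23, adjusted p = 0.0712). Its groups all but met, at 5.19 in C58/J and 5.20 in LP/J. Serpina3n, a serine protease inhibitor on chromosome 12, differed by -1.51 (SE 0.28, adjusted p = 0.220), Rhd, a red cell membrane protein, by -1.20 (adjusted p = 0.234), Frzb, a secreted Wnt antagonist, by 1.26 (adjusted p = 0.220) and Tnnt1, slow skeletal troponin T, by 1.17 (adjusted p = 0.234). These genes were named after their values were seen. All 7 fibroblast markers tested had a positive difference with a median of 0.45, 3 of them at an unadjusted p under 0.05 and none called. Col3a1 differed by 1.03 (adjusted p = 0.350), Lum by 0.90 (adjusted p = 0.350) and Col1a1 by 0.79 (adjusted p = 0.527), while Dcn differed by 0.04. Their mean level relative to its median over all arrays was 0.23 to 0.79 in 5 H2k strains and -0.28 in C58/J, against -0.43 to 0.26 in the H2b strains. The interferon response list had 15 positive and 7 negative differences of 22 tested (median 0.20), with none called.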

How the data were processed

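The authors deposited log2 expression values for 22416 probe sets, 89 of them controls. Per the submitters' processing notes the tools were GCOS and RMA (no versions given), and per the labels' protocols cDNA was primed with oligo-dT and the cRNA carried biotin. RMA values share 1 distribution across arrays, and scanner files were not used here, so signal over background is unknown. The number of arrays limits the precision. No build is given for the arrays, so gene positions are ranks in the RefSeq gene table.

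Gene names came from the platform annotation (17783 with 1 gene symbol, 284 with several, 4349 with none here). The brightest probe set over all 99 arrays stood for each of 11725 genes, and 7513 with a mean above the 40th percentile (3.59 log2) were kept. The fit of H2k against H2b strains used only these 11 arrays and no covariates (R 4.3.3; lmFit, then eBayes, of limma 3.58.1), and was tested on simulated data. Two-sided exact permutation tests used all 462 splits. Python 3.11.15, numpy 2.4.6, scipy 1.17.1 and matplotlib 3.10.9 were also used. Titles are numbers without a stated meaning, and lower (40 to 74) and upper (206 to 423) numbers, in which both groups occur, served as a block.

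The H2 complex ran in RefSeq order from Daxx to the last H2 gene. The plan began it at the first H2 symbol, but the gene table places 4 such genes far before Daxx, and with them it would span 232 tested genes, with 1 called and 5 (2.16%) without overlap. The start was set at Daxx after the data were seen. None of these 4 genes was among the tested genes, so they enter no count.

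Named genes were the tested class II, class I, peptide processing and Glo1 genes and the called genes of the complex. Others, such as Gabbr1, Vps52, Gpsm3, Art4 and Abhd16a, were chosen after their values were seen. The members and lists were chosen with earlier results of these data known. Alternatives changed the filter, probe sets, centring, eBayes, the strains in the fit, the block, a Gapdh covariate and single strains.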

Additional observations from a re-analysis of the deposited data

Results flagged for a closer look

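Among 96 groups of levels examined, 8 had a strain far from the others of its group, measured as its gap to the nearest strain over the range of the group. Chance flags about 1 in 20 groups. Within the H2k strains, AKR/J was low for H2-Aa at 3.90 (5.09 to 5.69 in the others) and for Cd74 at 5.40 (7.05 to 7.81 in the others). C58/J was low for H2-T23 at 6.83 (8.38 to 8.95 in the others) and for H2-T10 at 4.73 (5.95 to 6.22 in the others), and high for Art4 at 5.19 (3.83 to 4.25 in the others). MA/MyJ was high for Rhd at 5.67 (4.48 to 4.84 in the others) and low for Tnnt1 at 5.80 (6.63 to 6.88 in the others). Within the H2b strains, LP/J was high for Glo1 at 9.20 (8.70 to 8.81 in the others).

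The H2-D1 probe set that separated the groups read 5.87 in CAST/EiJ, which is in neither group, against 3.19 to 3.42 in the H2b strains.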

How the results depend on the processing

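The count of called genes was 1 in the main comparison, on chromosome 17 and in the complex. It stayed 1 without a filter, at the 60th percentile, with arrays centred, with related strains averaged and, for the complex, as worded in the plan. It was 2 in all 3 scopes with the title block and with the Gapdh covariate. It was also 2 in each scope with all probe sets, 1 of them the H2-D1 probe set whose p supports nothing. With eBayes trend and robust it was 3 in all, 2 on chromosome 17 and 2 in the complex, and with all classical strains it was 2 in all, Gabbr1 and Abca8a. Without C57BL/6J, C57L/J and C58/J it was 7, 2 and 2, and without arrays with markers of another organ 0, 0 and 0. Leaving out 1 strain at a time gave 0 to 10 in all, 0 to 2 on chromosome 17 and 0 to 2 in the complex. The 10 were without C58/J, and 0 were without CE/J, LP/J, C57L/J or BTBR T<+> tf/J. H2-Ea kept its sign and was not called under any of its 22 alternatives (-0.21 to -0.0059), and C58/J lay on the H2k side in 4 of 5 genes of the complex, or in 6 of 10 (60%) without a filter.

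C4b was -1.86 to -1.33 over 22 alternatives (adjusted p 0.00118 to 0.953), -1.23 at lower and -2.02 at upper title numbers. Gabbr1 was 1.29 to 1.63 and passed under 6 of 22 (adjusted p 5.12e-06 to 0.998). Small differences changed sign, none called, and the cause was not tested. H2-DMb2 was -0.021 with arrays centred, -0.033 with related strains averaged, -0.029 without the 3 C57-related strains, -0.031 with the title block and -0.094 to 0.14 without single strains. H2-T23 was 0.15 without the C57-related strains and -0.37 to 0.057 without single strains, the highest without C58/J. Canx was -0.076 without organ-marker arrays and -0.018 (without C57L/J) to 0.11 without single strains. Calr was -0.12 without the C57-related strains and -0.0065 (without C57L/J) to 0.20 without single strains. Psmb8 was -0.044 without organ-marker arrays. Psmb10 was -0.026 with related strains averaged and -0.053 (without LP/J) to 0.080 without single strains. Without single strains H2-DMa was -0.16 to 0.046 (without BTBR T<+> tf/J) and Cd74 was -0.51 to 0.00067 (without AKR/J). No paired analysis was possible because the labels give no shared replicate numbers.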
